A study of Homo sapiens with 4 samples.

Results

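The Wnt ligands, receptors and modulators of MCF10A cells were followed in RNA-seq libraries of wild-type cells and of cells that overexpressed the heat shock transcription factor HSF1. The rule that picks them uses gene symbols and no measured value, though it was written with earlier results of these data known: every WNT, FZD, SFRP, DKK and RSPO gene with a number in its name, LGR4, LGR5 and LGR6, and LRP5, LRP6, AXIN1, AXIN2, PORCN, WLS, ROR1 and ROR2, without antisense genes. This gave 52 genes of the 63856 in the count table: 19 ligands, 2 genes of ligand processing, 10 Frizzled receptors, 4 co-receptors, 7 R-spondins and LGR receptors, 8 secreted antagonists and 2 Axins.

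MCF10A is a non-tumorigenic human breast epithelial line, and the study asked how a raised level of HSF1 acts on its gene expression. Both groups were grown in DMEM/F12 with horse serum, insulin, hydrocortisone, EGF and cholera toxin. The 2 WT libraries came from cells without a vector. The 2 HSF1-pLVX libraries came from the same line carrying the human HSF1 coding sequence in the lentiviral plasmid pLVX-Puro, and the study's methods describe puromycin selection of the transduced cells. The promoter that drives HSF1 is not given in the sources used here, and libraries of cells with the empty vector were not analysed here. Effects of the vector, of the selection and of separate culture therefore cannot be told apart from those of HSF1. The study's methods call the replicates biological. Neither labels nor methods say that they are separate cultures, so p-values measure the spread between these libraries, which may be partly technical.

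Wnt proteins are secreted signals. PORCN attaches a lipid to them, WLS carries them to the cell surface, and they bind Frizzled receptors together with a co-receptor. Binding of LRP5 or LRP6 stops the complex built on Axin, APC and GSK3 from destroying beta-catenin, which then acts with TCF and LEF proteins on target genes, while ROR receptors mainly serve signalling that does not use beta-catenin. R-spondins and their LGR receptors keep Frizzled proteins at the surface, and SFRP and DKK proteins restrain the signal. In the mammary gland, Wnt signalling is known for its part in branching and in the upkeep of basal stem cells, and WNT4 acts there downstream of progesterone.

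The libraries held between 18688109 and 24184285 counts. HSF1 itself stood at 200.4 and 189.2 CPM (counts scaled to library size with the TMM method) in WT cells and at 982 and 999 CPM in HSF1-pLVX cells, as the labels state. Of 12 epithelial marker genes, 11 reached 1 CPM in every library. KRT19 was just under 1 CPM in an HSF1-pLVX library. The summed level of these markers was 23270 and 22630 CPM in WT and 10870 and 11450 CPM in HSF1-pLVX cells, with abundant keratins such as KRT17 (7223 and 7165 against 1183 and 1256 CPM) and KRT8 (3158 and 3173 against 382.9 and 287.9 CPM) lower. Of the 12, 9 fell and 3 rose: the basal genes TP63 (11.1-fold) and KRT5 (2.17-fold), and ITGA6 (1.36-fold). The basal keratin KRT14 fell 11.7-fold (542.3 and 518.0 against 46.8 and 43.4 CPM), so basal genes went both ways. The 6 markers of hormone-responsive luminal cells summed to 123.5 and 118.6 CPM in WT and to 42.0 and 34.9 CPM in HSF1-pLVX cells. Most of this was GATA3 (107.7 and 101.6 against 22.4 and 20.5 CPM), and PGR and TFF1 were at 0. Of the 3 tested, GATA3 and FOXA1 fell, while ESR1 rose (3.14 and 2.58 against 10.5 and 7.45 CPM). CD14, a monocyte and macrophage marker, was at 1.17 and 0.538 CPM in WT and at 58.6 and 83.2 CPM in HSF1-pLVX cells. The summed level of the 6 immune markers was 1.65 and 1.35 CPM against 60.8 and 85.3 CPM, with the defining gene PTPRC at 0 counts in every library. ITGAM, the other immune marker tested, also rose, from 0.320 and 0.323 to 2.19 and 2.06 CPM. For 8 fibroblast markers the sums were 7.78 and 10.9 CPM against 14.9 and 13.9 CPM. Only 2 of them were tested. COL1A1, which made up most of each sum, did not pass (7.19 and 10.4 against 10.7 and 9.21 CPM). DCN rose, from 0.0533 and 0.162 to 3.74 and 4.38 CPM. For 5 endothelial markers the sums were 3.14 and 2.10 CPM against 13.4 and 14.7 CPM, mostly KDR (1.86 and 1.45 against 12.3 and 12.9 CPM). The part of these markers' cells in the values below was not tested. In bulk RNA, fewer cells of a type and less RNA per cell cannot be told apart.

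Wnt genes moved in both directions, with more of them lower than higher in HSF1-pLVX cells. Of the 52 genes, 31 had enough counts to be tested, and 21 were not. Over all 15830 genes tested, edgeR's quasi-likelihood fit, with p-values adjusted by Benjamini and Hochberg's method to a limit of 0.05, called 8 of the 31 higher (25.8%, against 32.7% of all genes tested) and 16 lower (51.6%, against 33.2%). The remaining 7 did not pass. With a change of at least 2-fold added, 5 were higher (16.1%, against 14.9% of all genes) and 12 lower (38.7%, against 14.0%). Over the 31 genes the log2 fold changes had a median of -0.52, against 0.02 over all genes tested. In either direction, 65.9% of all genes passed, so a single call is common in this comparison. The CPM of the groups did not overlap for 27 of the 31 genes, against 83.1% of all genes.

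A gene that is at background in one group can pass a filter on low counts through the group in which it is high. The counts were therefore also taken over the 27 genes with at least 10 counts in every library. Of these, 7 were higher and 14 lower, beside 32.6% and 33.5% of the 13868 genes that met the same minimum. At a 2-fold change or more, 4 were higher and 10 lower, beside 12.3% and 11.7%. The other 4 tested genes were WNT10B, WNT16, LGR6 and AXIN2. When each library was left out in turn, between 5 and 8 genes were higher and between 13 and 16 lower. The lowest counts came without HSF1-pLVX replicate 2. Genes at least 2-fold higher numbered 3 without WT replicate 2 or without HSF1-pLVX replicate 2. The plot of the log2 fold changes shows that the ligands moved farthest in both directions, while most Frizzled receptors lay within a 2-fold change.

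**Figure D1:**
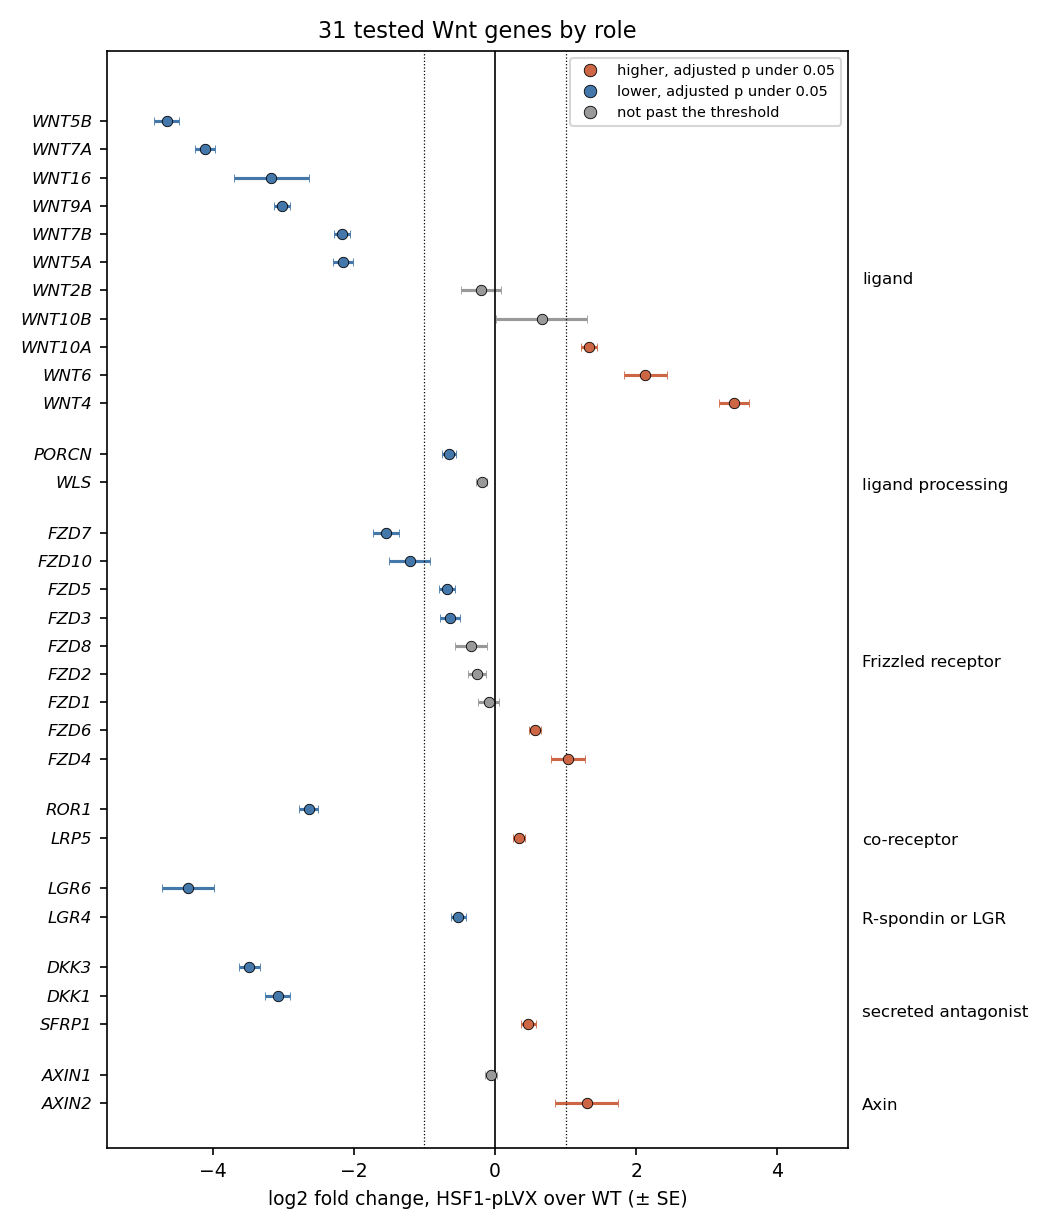
The log2 fold change of HSF1-pLVX over WT (x axis) for each of the 31 tested Wnt genes, grouped by role, with bars of 1 SE. Dotted lines mark a 2-fold change and colours mark genes past an adjusted p of 0.05. Values run from -4.65 for WNT5B to 3.38 for WNT4.

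Among the ligands, 6 of the 11 tested fell (54.5%, against 33.2% of all genes), 3 rose (27.3%, against 32.7%) and 2 did not pass. Each of the 9 ligands that passed changed by more than 2-fold. With a change of at least 2-fold, 14.0% of all genes fell and 14.9% rose. WNT7A, a ligand known from the female reproductive tract and limb, stood at 61.4 and 64.1 CPM in WT cells and at 4.34 and 2.77 CPM in HSF1-pLVX cells. It fell 17.3-fold (log2 fold change -4.11 ± 0.144 SE, adjusted p = 2.18e-11). WNT9A, which takes part in joint formation, was at 49.97 and 55.2 CPM in WT and at 6.97 and 5.94 CPM in HSF1-pLVX cells. That is 8.10-fold lower (-3.02 ± 0.115, adjusted p = 4.54e-11). WNT7B, the paralogue of WNT7A, was at 65.7 and 52.4 CPM against 12.6 and 13.7 CPM, a 4.51-fold fall (-2.17 ± 0.118, adjusted p = 1.24e-09). For all 3 genes, both WT libraries lay far above both HSF1-pLVX libraries. On hg38 they lie on the minus strand at chr3:13816258-13880121 (WNT7A), chr1:227918656-227947898 (WNT9A) and chr22:45920362-45977129 (WNT7B).

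WNT5A and WNT5B, the paralogous ligands best known for signalling without beta-catenin, also fell. WNT5B (chr12:1529891-1647243, plus strand) was at 25.0 and 23.3 CPM in WT and at 0.837 and 1.11 CPM in HSF1-pLVX cells. In raw counts these were 469 and 433 against 21 and 22. It was 25.0-fold lower (log2 fold change -4.65 ± 0.175 SE, adjusted p = 4.05e-11). WNT5A (chr3:55465715-55490539, minus strand) was at 25.7 and 21.4 CPM in WT and at 5.70 and 4.88 CPM in HSF1-pLVX cells, a 4.43-fold fall (-2.15 ± 0.14, adjusted p = 8.04e-09). The paralogues were thus at similar CPM in WT cells, and WNT5B was the lower of the pair in both HSF1-pLVX libraries. WNT16 (chr7:121325367-121341104, plus strand) had few reads, 17 and 37 counts in WT and 4 and 3 counts in HSF1-pLVX cells, and its fall (-3.17 ± 0.531, adjusted p = 1.10e-04) was -2.51 without WT replicate 2.

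**Figure D2:**
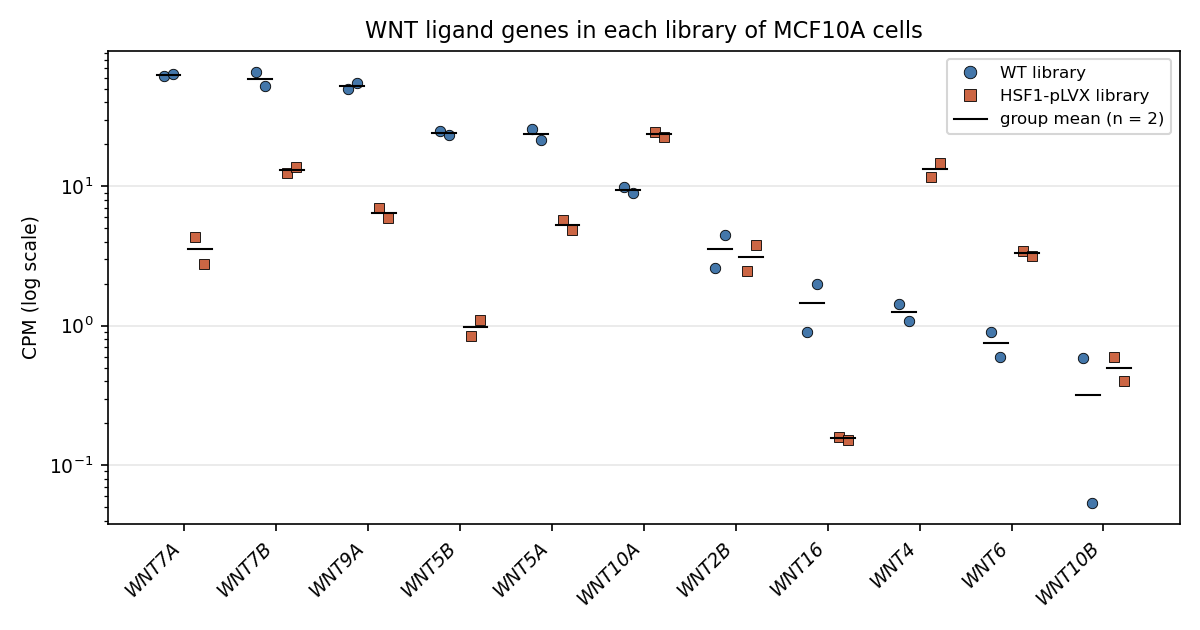
CPM of the 11 tested Wnt ligands (y axis, log scale) in each of the 4 libraries, 2 WT and 2 HSF1-pLVX, with a line at each group mean. WNT7A, WNT7B, WNT9A, WNT5A and WNT5B sit above 20 CPM in WT and below 14 CPM in HSF1-pLVX cells, while WNT4, WNT6 and WNT10A are higher in both HSF1-pLVX libraries.

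The ligands that rose were WNT4, WNT6 and WNT10A. WNT4 (chr1:22117305-22143969, minus strand) stood at 1.44 and 1.08 CPM in WT and at 11.8 and 14.7 CPM in HSF1-pLVX cells. It rose 10.4-fold (log2 fold change 3.38 ± 0.213 SE, adjusted p = 5.42e-09). WNT10A, a ligand with a known part in tooth and skin appendage development, was at 9.86 and 8.93 CPM against 24.5 and 22.6 CPM, 2.51-fold higher (1.33 ± 0.118, adjusted p = 2.04e-07). WNT6 was at 0.906 and 0.592 CPM against 3.43 and 3.17 CPM, 4.38-fold higher (2.13 ± 0.303, adjusted p = 2.39e-05). None of the 3 genes overlapped between groups, but WNT6 stayed below 4 CPM in every library.

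WNT6 (chr2:218859821-218874233) and WNT10A (chr2:218880363-218899581) are neighbours on the plus strand, 6130 bases apart, and both rose. The nearest tested genes with a symbol before the pair were PRKAG3, 27.7 kb away, and CYP27A1, 44.5 kb away, and both were also called higher. PRKAG3 was at 0 and 0.108 CPM in WT and 1.28 and 1.11 CPM in HSF1-pLVX cells (log2 fold change 4.34 ± 0.651, adjusted p = 4.01e-05). CYP27A1 had a log2 fold change of 0.96 ± 0.325 (adjusted p = 0.0181). The nearest such genes after the pair were NHEJ1, 175.7 kb away, and SLC23A3, 261.9 kb away. NHEJ1 did not pass (0.15, adjusted p = 0.784), and SLC23A3 fell by 1.07 on the log2 scale (adjusted p = 0.00926). All 4 of these neighbours were below 2.5 CPM in every library. The other adjacent Wnt pairs each held a gene that was not tested: WNT3A lies 59153 bases from WNT9A, WNT1 lies 6690 bases from WNT10B, and WNT3 and WNT9B were both untested.

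The 2 ligands that did not pass were WNT2B and WNT10B. WNT2B was at 2.61 and 4.47 CPM in WT and at 2.47 and 3.78 CPM in HSF1-pLVX cells, so the groups overlapped (log2 fold change -0.20, adjusted p = 0.562). Of its exon bases, 21.2% are shared with ST7L on the opposite strand, which had between 151 and 260 counts a library. The strand setting of the counting is not given in the sources used here, so their reads may not be separable. WNT10B was at 0.586 and 0.0538 CPM in WT and at 0.598 and 0.403 CPM in HSF1-pLVX cells (0.66, adjusted p = 0.385). One library decided its value. Without WT replicate 1 it was called higher (3.12, adjusted p = 0.0127), and without WT replicate 2 its log2 fold change was -0.22.

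The ligands made up a different mixture in the 2 groups. For levels between genes, CPM was divided by the exon length in kilobases (CPM per kb). The summed level of the 19 ligands was 52.9 and 50.9 CPM per kb in WT cells and 18.5 and 17.99 CPM per kb in HSF1-pLVX cells, or 51.9 ± 1.40 against 18.2 ± 0.331 (SD, n = 2 each). The log2 difference was -1.51. An exact two-sided permutation test gave p = 0.33, the smallest value that 2 against 2 libraries allow. WNT3 and WNT9B entered the sum at no more than 1 count and at 0 counts, from which no statement is drawn. In WT cells WNT7A, WNT9A and WNT7B led with mean shares of 26.5%, 25.6% and 22.5% of the summed level. Their levels, 13.4 and 14.0, 12.6 and 13.9, and 13.01 and 10.4 CPM per kb, overlapped, so their order within WT is not set. WNT5B followed with 10.8%, WNT5A with 6.13% and WNT10A with 5.31%.

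In HSF1-pLVX cells WNT10A led, with 37.8% of the summed ligand level (7.18 and 6.61 CPM per kb). WNT4 came next with 16.1% (2.596 and 3.25 CPM per kb) and WNT7B with 14.3% (2.48 and 2.71 CPM per kb), and these neighbours in the order overlapped. WNT6 held 10.6%, WNT9A 8.91%, WNT7A 4.25%, WNT5A 3.92% and WNT5B 1.24%. WNT4 had held 0.534% and WNT6 0.845% in WT cells. The leading ligand of the HSF1-pLVX cells was thus the sixth of the WT cells by mean level per kb. Measured per kb, the level of WNT10A in HSF1-pLVX cells was below that of WNT7A, WNT9A or WNT7B in either WT library.

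**Figure D3:**
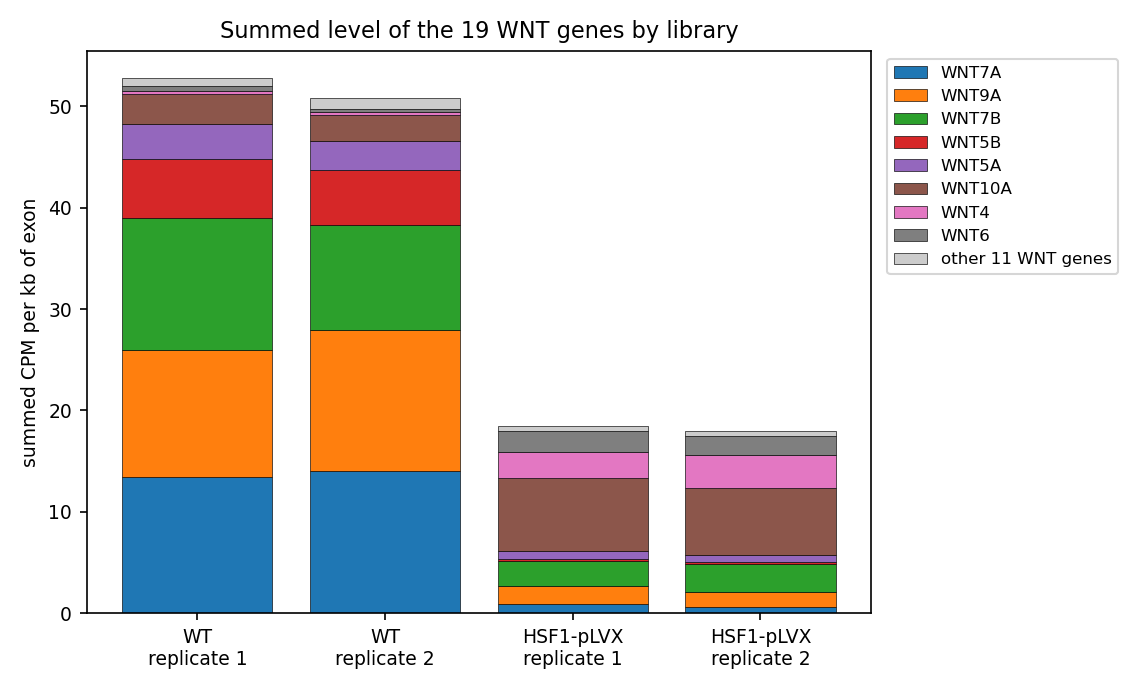
Ligand levels stacked in CPM per kb of exon for each of the 4 libraries. The 2 WT bars reach 52.9 and 50.9 and are mostly WNT7A, WNT9A and WNT7B, whereas the 2 HSF1-pLVX bars reach 18.5 and 17.99 and are led by WNT10A and WNT4.

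Promoter windows of the ligands were read for short motifs, because HSF1 binds DNA at inverted repeats of a GAA unit. The windows (RefSeq, GRCh38.p14) run from 250 bases before to 50 after an annotated start, and 36 of the 52 genes had one. The motifs were searched on both strands. GAANNTTC lies in 6.77% of all 35116 windows and in those of 2 of the 36 genes, WNT16 and WNT8A. TTCNNGAA lies in 7.74% of all windows and in none of the 36. The TCF and LEF core ATCAAAG lies in 2.62% of all windows and in none of the 36. A match describes letters and not a bound site, and no match says only that these letters are absent from the window. The window of WNT16 is shown because it holds the only match in a tested gene, in capitals, starting at base 5 when the start site is counted as 1. The windows of WNT4 and WNT10A, which rose, and of WNT7A, which fell, are shown beside it and hold no match to the 3 motifs. They lie at chr7:121328750-121329049 on the plus strand (WNT16), chr1:22143048-22143347 on the minus strand (WNT4), chr2:218880602-218880901 on the plus strand (WNT10A) and chr3:13880022-13880321 on the minus strand (WNT7A), each written 5′ to 3′.
WNT16: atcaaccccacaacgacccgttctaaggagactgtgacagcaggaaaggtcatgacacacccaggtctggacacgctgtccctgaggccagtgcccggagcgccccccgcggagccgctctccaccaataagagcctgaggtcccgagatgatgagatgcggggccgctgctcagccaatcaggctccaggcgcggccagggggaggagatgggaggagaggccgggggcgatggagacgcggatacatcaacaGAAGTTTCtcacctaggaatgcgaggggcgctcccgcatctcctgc
WNT4: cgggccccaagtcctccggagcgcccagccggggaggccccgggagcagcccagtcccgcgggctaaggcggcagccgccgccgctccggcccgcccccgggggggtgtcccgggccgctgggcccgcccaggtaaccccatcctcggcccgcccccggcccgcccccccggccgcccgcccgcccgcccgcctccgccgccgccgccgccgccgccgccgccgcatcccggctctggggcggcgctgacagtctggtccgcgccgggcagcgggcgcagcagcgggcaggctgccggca
WNT10A: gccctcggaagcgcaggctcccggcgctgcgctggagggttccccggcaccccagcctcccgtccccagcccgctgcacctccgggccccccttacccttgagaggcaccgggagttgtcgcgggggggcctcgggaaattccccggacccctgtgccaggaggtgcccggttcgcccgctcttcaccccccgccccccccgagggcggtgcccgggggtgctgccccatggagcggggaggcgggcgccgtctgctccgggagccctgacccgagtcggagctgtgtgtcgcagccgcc
WNT7A: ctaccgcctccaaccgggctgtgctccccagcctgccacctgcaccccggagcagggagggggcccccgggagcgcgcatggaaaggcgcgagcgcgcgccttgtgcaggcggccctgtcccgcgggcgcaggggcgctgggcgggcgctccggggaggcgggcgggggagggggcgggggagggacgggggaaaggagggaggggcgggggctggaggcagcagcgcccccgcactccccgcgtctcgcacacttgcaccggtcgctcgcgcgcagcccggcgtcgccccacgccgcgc

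All 4 windows are rich in G and C, at 63.7% for WNT16, 85.7% for WNT4, 76.7% for WNT10A and 80.3% for WNT7A, with 20, 47, 30 and 40 CpG dinucleotides. Over all 35116 windows the median was 58.7% with 14 CpG. Taking 1 window for each Wnt gene, the medians were 79.7% for 5 genes that rose, 63.7% for 11 that fell, 65.7% for 5 that did not pass and 72.7% for 15 not tested. A GC-rich window was therefore found in ligands of either direction, as WNT4 and WNT7A show. These are descriptions of few genes and no test was made.

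The genes of ligand processing were closer to their WT levels than the ligands were. PORCN, the acyltransferase, stood at 32.6 and 31 CPM in WT and at 20.5 and 20.1 CPM in HSF1-pLVX cells (log2 fold change -0.65 ± 0.096 SE, adjusted p = 3.52e-05). WLS, the carrier, was at 86.3 and 83.8 CPM against 72.0 and 76.8 CPM and did not pass (-0.19 ± 0.083, adjusted p = 0.0535), although its groups did not overlap.

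Of the 9 tested Frizzled receptors, 4 fell (44.4%, against 33.2% of all genes), 2 rose (22.2%, against 32.7%) and 3 did not pass. Their median log2 fold change was -0.34. FZD6, often linked to signalling without beta-catenin and to planar cell polarity, was the most abundant per kb in both groups. It stood at 73.3 and 71.8 CPM in WT and at 111.8 and 103 CPM in HSF1-pLVX cells and rose 1.48-fold (log2 fold change 0.57 ± 0.085 SE, adjusted p = 3.998e-05). Its share of the summed Frizzled level per kb was 53.4% in WT and 70.4% in HSF1-pLVX cells. The summed level was 33.2 and 33.6 CPM per kb against 38.8 and 36.3 CPM per kb, a log2 difference of 0.17. Of the exon bases of FZD6, 3.40% are shared with BAALC-AS1 on the opposite strand, which had between 31 and 70 counts a library. FZD2 held the next share, 17.3% in WT and 12.9% in HSF1-pLVX cells.

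FZD7, a receptor associated with mammary and intestinal stem cells, fell 2.91-fold. It was at 8.26 and 9.85 CPM in WT and at 3.27 and 2.92 CPM in HSF1-pLVX cells (log2 fold change -1.54 ± 0.183 SE, adjusted p = 3.98e-06, chr2:202034587-202038445). FZD10 (chr12:130162459-130165740) was at 2.29 and 3.07 CPM against 1.28 and 1.007 CPM (-1.21 ± 0.29, adjusted p = 0.00202), and its call was lost without HSF1-pLVX replicate 2 (adjusted p = 0.0638). FZD4 (chr11:86945679-86955391) was at 2.18 and 1.83 CPM in WT and at 3.70 and 4.58 CPM in HSF1-pLVX cells (1.04 ± 0.241, adjusted p = 0.00166). These 3 genes did not overlap between groups. FZD4 shares 18.95% of its exon bases with PRSS23 on the opposite strand, whose counts were 2199 and 2066 in WT and 495 and 374 in HSF1-pLVX cells. FZD4 and PRSS23 thus went in opposite directions.

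The other Frizzled calls were smaller than 2-fold. FZD5 fell by 0.68 on the log2 scale (18.7 and 18.3 CPM against 11.95 and 11.1 CPM, adjusted p = 1.22e-04). FZD3 fell by 0.64 (15.7 and 18.9 CPM against 12.6 and 9.56 CPM, adjusted p = 0.00146), a call that was lost without HSF1-pLVX replicate 2. FZD1, FZD2 and FZD8 did not pass, with log2 fold changes of -0.09, -0.26 and -0.34 and adjusted p-values of 0.619, 0.0854 and 0.202. FZD9 had at most 4 counts in a library and was not tested. Windows of 76 bases shared between Wnt genes were found only between FZD1 and FZD2, at under 1% of either gene.

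**Figure D4:**
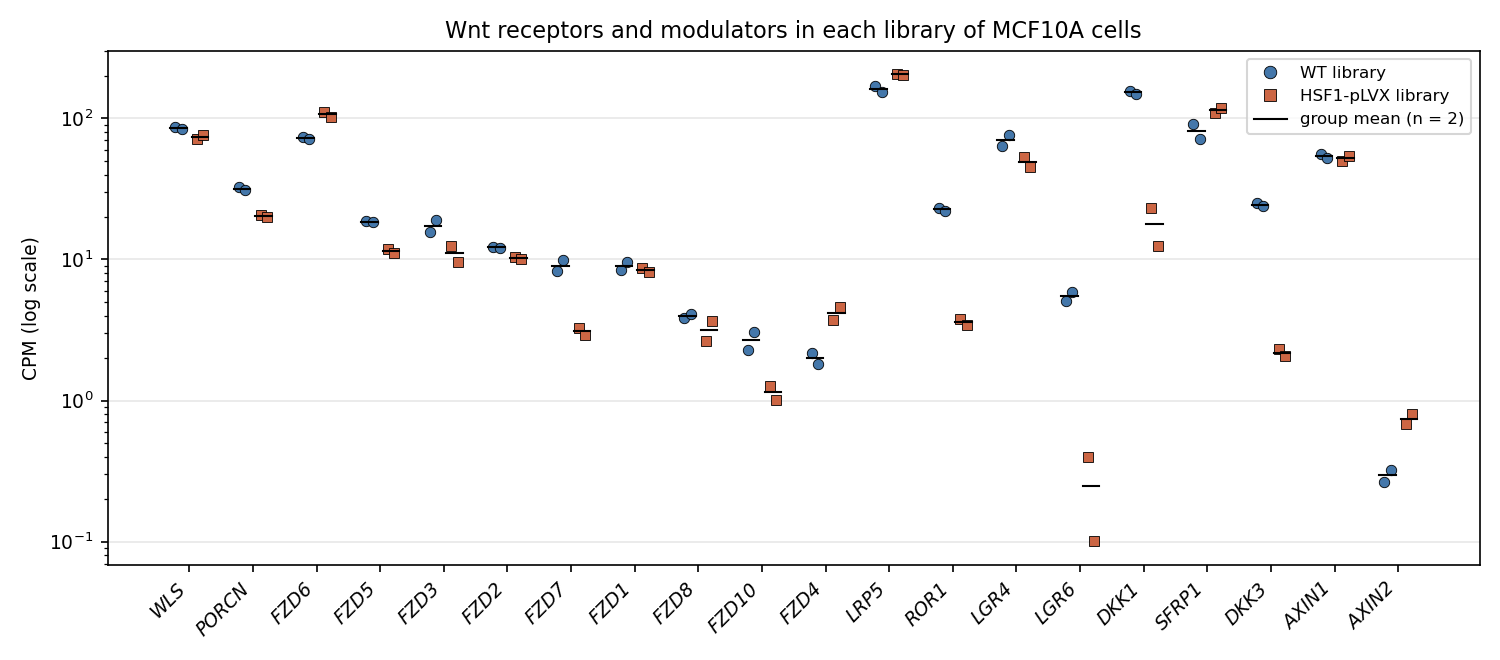
CPM (log axis) of the tested receptors, ligand processing genes, antagonists and Axins in each of the 4 libraries, with a line at each group mean. ROR1, LGR6, DKK1 and DKK3 are set far apart between WT and HSF1-pLVX cells, while FZD6, LRP5 and SFRP1 are somewhat higher in both HSF1-pLVX libraries.

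The co-receptors moved apart. ROR1 (chr1:63774022-64181498, plus strand), a receptor for WNT5A, was at 23.3 and 21.9 CPM in WT and at 3.78 and 3.42 CPM in HSF1-pLVX cells. It fell 6.24-fold (log2 fold change -2.64 ± 0.136 SE, adjusted p = 7.21e-10), beside the falls of WNT5A and WNT5B given above. LRP5, the co-receptor of beta-catenin signalling, stood at 170.0 and 153.1 CPM against 206.1 and 204.0 CPM, 1.27-fold higher (0.34 ± 0.09, adjusted p = 0.00387). That call was lost without WT replicate 2 (adjusted p = 0.0547) and without HSF1-pLVX replicate 2 (adjusted p = 0.0727). LRP5 made up 88.6% of the summed co-receptor level per kb in WT and 98.4% in HSF1-pLVX cells. LRP6 entered this sum at 0 counts, which cannot be read as its level, so these shares hold only for the other co-receptors. ROR2 had at most 1 count in a library.

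LRP6, the close relative of LRP5, was listed at 0 counts in all 4 libraries. The annotation used for counting holds another copy of LRP6 on the contig KN538369.1, also at 0. Among genes on the main chromosomes whose symbol has at least 2 rows in the authors' summary table, 55.4% (497 of 898) were at 0 in every library, against 13.4% (2353 of 17505) of genes with 1 row. No statement on the expression of LRP6 can be drawn from its 0. WNT3 and WNT9B also have more than 1 row, with at most 1 count and 0 counts.

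Of the R-spondin receptors, LGR6 (chr1:202193901-202319781, plus strand) fell the most. It was at 5.11 and 5.92 CPM in WT, or 96 and 110 counts, and at 0.398 and 0.101 CPM in HSF1-pLVX cells, or 10 and 2 counts (log2 fold change -4.35 ± 0.374 SE, adjusted p = 1.42e-07). The value was -5.68 without HSF1-pLVX replicate 1 and -3.76 without HSF1-pLVX replicate 2. LGR4, the main receptor of this family here, stood at 64.0 and 76.4 CPM against 53.0 and 45.1 CPM (-0.52 ± 0.105, adjusted p = 5.72e-04), and its call was lost without HSF1-pLVX replicate 2. Per kb, LGR4 made up 89.9% of the family in WT and 99.1% in HSF1-pLVX cells. LGR5, a stem cell marker of the intestine, had at most 3 counts in a library, and the R-spondins RSPO1, RSPO2, RSPO3 and RSPO4 had at most 1.

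The makeup of the secreted antagonists also differed between the groups. DKK1 (chr10:52314296-52318042, plus strand), which blocks LRP5 and LRP6, was at 156.5 and 149.6 CPM in WT and at 23.1 and 12.5 CPM in HSF1-pLVX cells. It fell 8.47-fold (log2 fold change -3.08 ± 0.179 SE, adjusted p = 2.37e-09). DKK3 (chr11:11963106-12009769, minus strand), a divergent member of the family, was at 25.0 and 24 CPM against 2.31 and 2.06 CPM, 11.1-fold lower (-3.48 ± 0.145, adjusted p = 9.88e-11). SFRP1, a decoy that binds Wnt proteins, was at 91.9 and 72.0 CPM against 109.5 and 118.1 CPM, 1.39-fold higher (0.47 ± 0.108, adjusted p = 0.00140), and this call was lost without HSF1-pLVX replicate 2.

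The summed antagonist level was 95.2 and 87.9 CPM per kb in WT and 34.1 and 30.9 CPM per kb in HSF1-pLVX cells. Its log2 difference was -1.49, close to the -1.51 of the ligands (exact permutation p = 0.33, the smallest possible). DKK1 held 75.9% of this sum in WT and 24.6% in HSF1-pLVX cells, and SFRP1 held 18.8% and 73.8%. The leading antagonist by this measure was thus DKK1 in WT and SFRP1 in HSF1-pLVX cells. DKK2, DKK4, SFRP2, SFRP4 and SFRP5 had at most 3 counts in a library.

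The Axins scaffold the complex that destroys beta-catenin, and AXIN2 is also a widely used target gene of the pathway. AXIN1 was at 56.3 and 52.1 CPM in WT and at 50.03 and 54.1 CPM in HSF1-pLVX cells, so the groups overlapped (log2 fold change -0.06, adjusted p = 0.569). AXIN2 (chr17:65528563-65561647, minus strand) had only 5 and 6 counts in WT and 17 and 16 counts in HSF1-pLVX cells. Its call at a log2 fold change of 1.30 ± 0.448 (adjusted p = 0.0192) was lost when any of the 4 libraries was left out and with DESeq2's Wald test (adjusted p = 0.195). A gene at 0 counts on the same strand shares 25.2% of AXIN2's exon bases, and how reads there were counted is not given in the sources used here.

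The rest of the pathway was described with 5 lists of 111 genes in all, of which 85 were tested. With each gene counted once, 32 were higher and 32 lower, with a median log2 fold change of 0.01. That is 37.6% in each direction, beside 32.7% and 33.2% of all genes, or 75.3% in all, beside 65.9%. At a 2-fold change or more, 16 were higher (18.8%) and 10 lower (11.8%), beside 14.9% and 14.0% of all genes. The list of other surface modulators had 8 of 13 tested genes higher (61.5%, against 32.7% of all genes) and 2 lower (15.4%, against 33.2%), with a median of 0.81. At a 2-fold change or more, 6 were higher (46.2%, against 14.9%) and 2 lower (15.4%, against 14.0%). The 2 lower genes were GPC4 and APCDD1. GPC6 and GPC4, heparan sulfate proteoglycans of the glypican family, went in opposite directions, at 0.693 and 0.754 against 10.8 and 11.1 CPM (log2 fold change 3.91) and at 10.2 and 8.88 against 1.51 and 1.91 CPM (-2.48). TIKI1, which cleaves Wnt proteins, rose from 7.57 and 7.16 to 38.7 and 37.2 CPM (2.37). APCDD1, a surface inhibitor, was at 3.68 and 3.93 CPM in WT and at 0.159 and 0 CPM in HSF1-pLVX cells (-5.33). For these 4 genes the adjusted p was at most 3.08e-07.

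The relay and destruction complex list had 6 of 21 tested genes higher (28.6%) and 9 lower (42.9%), with a median of -0.12. Of all genes tested, 32.7% were higher and 33.2% lower. In this list 1 gene passed 2-fold. That gene was AMER1, a partner of APC, at 2.61 and 2.96 against 8.32 and 8.51 CPM (log2 fold change 1.59). GSK3B, a kinase of the complex, was at 167 and 172.4 against 87.9 and 83.1 CPM (-0.99), APC at 59.4 and 50.3 against 29.9 and 25.8 CPM (-0.97), and CTNNB1, which encodes beta-catenin itself, at 500.0 and 513.5 against 313.3 and 295.1 CPM (-0.74). All 4 passed the test. Among genes of the TCF complex, 6 of 17 were higher and 6 lower (35.3% each, near the shares of all genes), with a median of -0.15. The corepressors TLE2 and TLE1 fell by 1.63 and 0.99 on the log2 scale, while TLE3 rose by 0.57 and TLE4 did not pass (-0.19). AES fell by 0.78, and the DNA-binding factor TCF7 rose by 0.96.

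Of 15 tested genes on the list of textbook targets of the pathway, 5 were higher (33.3%) and 8 lower (53.3%). The shares of all genes were 32.7% and 33.2%. The median of this list was -0.89. CCND1, which encodes cyclin D1, stood at 1900 and 1925 CPM in WT and at 245.8 and 199.3 CPM in HSF1-pLVX cells (log2 fold change -3.10, adjusted p = 6.56e-11). MYC, a growth regulator, was at 80.5 and 89.9 CPM against 535.8 and 523.6 CPM (2.64, adjusted p = 4.26e-11). The protease gene MMP7 was at 3.995 and 3.66 CPM against 25.2 and 34.1 CPM (2.95, adjusted p = 1.73e-09). At a 2-fold change or more, 3 genes of this list were higher (20.0%) and 7 lower (46.7%), beside 14.9% and 14.0% of all genes. APCDD1, given above, is among the lower ones. Genes of this list thus went both ways, with more of them lower. They also answer to other pathways, and the cause of their changes was not tested. The list for signalling without beta-catenin had 9 of 23 genes higher (39.1%) and 8 lower (34.8%), with a median of 0.13. Both percentages were near those of all genes. NFATC2, a calcium-regulated transcription factor, was at 6.23 and 6.57 against 0.279 and 0.403 CPM (-4.23). CAMK2B, a calcium-dependent kinase, was at 1.81 and 1.72 against 20.7 and 26.7 CPM (3.74), NFATC4, a relative of NFATC2, at 5.01 and 5.92 against 21.0 and 18.7 CPM (1.86), and the planar polarity cadherin CELSR2 at 53.4 and 48.9 against 144.2 and 150.8 CPM (1.53).

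**Figure D5:**
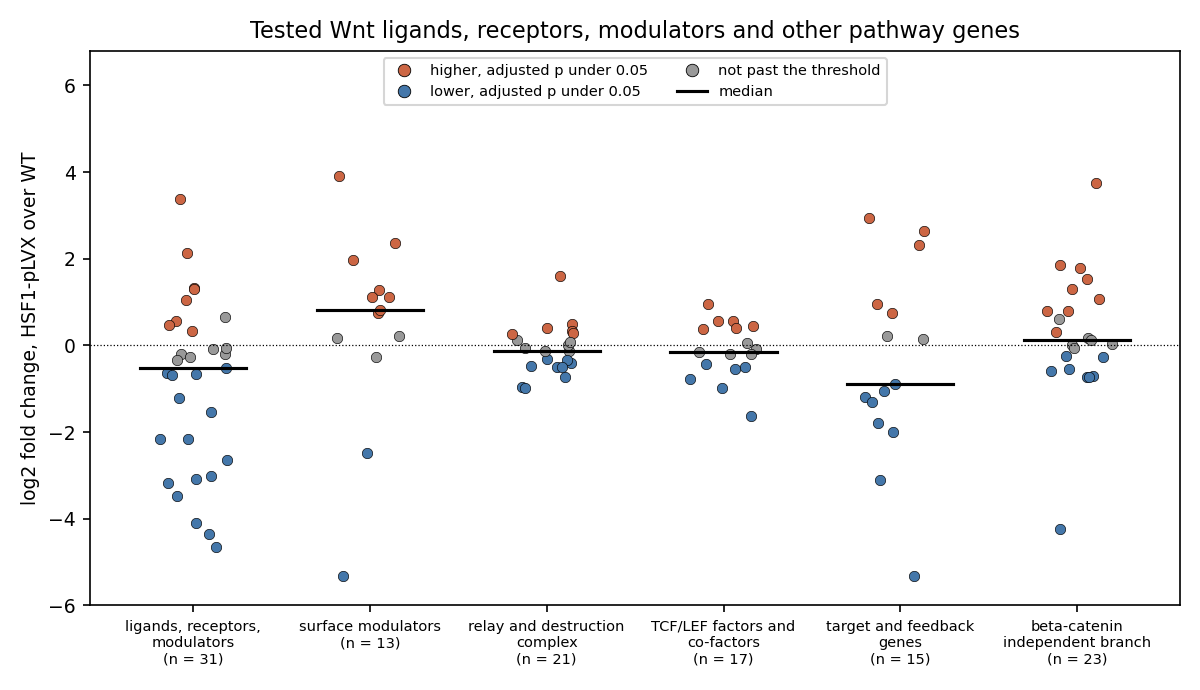
Log2 fold change of HSF1-pLVX over WT (y axis) for each of the 31 tested ligands, receptors and modulators and for each tested gene of the 5 other Wnt pathway lists (x axis), with the median as a line and colours for genes past an adjusted p of 0.05. The medians run from -0.89 for target genes to 0.81 for surface modulators, and every set holds genes on both sides of 0.

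The study's own rule, a ratio of the deposited normalized values above 2.0 or below 0.50 in both replicates, was also applied. WNT4, WNT6 and WNT10A passed the upper limit, which 5.0% of the 22321 rows of that table passed. WNT5A, WNT5B, WNT7A, WNT7B, WNT9A, WNT16, FZD7, ROR1, LGR6, DKK1 and DKK3 passed the lower limit, which 6.42% passed. FZD4, FZD10 and AXIN2, at least 2-fold apart in the fit to the counts, passed neither.

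Wnt genes with few or no reads complete the list. At 0 counts in every library were 10 genes, the ligands WNT1, WNT2, WNT8A and WNT9B, the co-receptor LRP6, and RSPO1, RSPO2, RSPO3, DKK2 and SFRP4. WNT3, WNT3A, WNT8B and WNT11 had at most 3 counts in a library. In all, 20 of the 52 genes had no more than 3 counts in any library, and none of them was tested. For those with 1 row in the summary table, a difference between groups was not detectable at these counts, and no statement is drawn from the low counts of LRP6, WNT3 and WNT9B, which have more than 1 row.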

How the data were processed

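RNA-seq counts of 4 MCF10A libraries were analysed, 2 WT and 2 HSF1-pLVX, grouped by the genotype label. The authors deposited raw counts per gene, from paired-end total RNA reads aligned to hg38 with HISAT2 2.0.5, handled with SAMtools 1.13 and counted with featureCounts 1.6.5. The strand, overlap and multi-mapping settings are not given in the sources used here. The authors also deposited log2 scale values normalized with DESeq2 1.32.0, with a floor of 3.118 at 0 counts, which entered only the ratio rule of the study. DESeq2's variance-stabilizing transformation of the counts matched them for all 52 genes within 5.8e-05. No row lacked a gene identifier. Identifiers are those of GENCODE 26, symbols those of GENCODE 44, and coordinates run over the counted exons.

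The test was edgeR 4.0.16 under R 4.3.3 (TMM, filterByExpr defaults, quasi-likelihood test of HSF1-pLVX against WT without a block, Benjamini-Hochberg adjustment over 15830 genes). Calls used a limit of 0.05 on the adjusted p. SE is the log2 fold change divided by the square root of F. The procedure was tested on simulated counts in which only a small part of the genes changed. In these data 65.9% of the genes tested passed, so that test does not give the error rate of the calls. Library totals were between 18688109 and 24184285 counts, and counting error is largest for genes of few counts. Replicates differed by more than sampling noise, with a chi-square per degree of freedom of 6.623 (WT) and 8.041 (HSF1-pLVX). The Wnt genes, the other gene lists and the tests were chosen with earlier results of these data known. Genes called with at least a 2-fold change were named with each library's value, the others by role, and from each pathway list up to 4 called genes of largest change (at least 50 counts in both libraries of whichever group was higher). TLE3 and TLE4 were named in addition, beside TLE1 and TLE2. Alternatives were the replicate number as a block, DESeq2 size factors, library size alone, no filter or at least 1 CPM in 2 libraries, DESeq2 1.42.0, limma 3.58.1 voom, and each library left out.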

Additional observations from a re-analysis of the deposited data

How the results depend on the processing

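Counts of 8 higher and 16 lower genes were the same with the replicate number as a block, with DESeq2 size factors, with library size alone, without a filter and with limma voom. DESeq2's Wald test gave 7 and 16, with 4 and 12 at 2-fold or more, and the filter of 1 CPM in 2 libraries gave 7 and 15, with 4 and 11. With each library left out they ran from 5 to 8 and from 13 to 16, and at 2-fold or more from 3 to 5 higher and from 11 to 12 lower. The lone library of a group is then assumed to vary like the others. The median log2 fold change of the tested genes, -0.52, was -0.25 without a filter, where 42 genes were tested, and ran from -0.64 to -0.40 with a library left out. The log2 difference of the summed ligand level was -1.45 with library size alone and ran from -1.54 to -1.48 with a library left out. Of 338 single-gene values, 320 kept both direction and side of the threshold, 11 calls were lost, 1 was gained and 6 reversed. The reversed values, all near 0 or from few counts, were WNT10B at -0.22 without WT replicate 2 (-0.22 to 3.12 with a library left out), WNT2B at 0.23 without WT replicate 2 and 0.10 without HSF1-pLVX replicate 1 (-0.52 to 0.23), and AXIN1 at 0.00 with library size alone, 0.01 without WT replicate 1 and 0.00 without HSF1-pLVX replicate 1 (-0.13 to 0.01). The cause was not tested. Of the 24 called genes, 10 did not pass the study's ratio limits, and 7 of these were under 2-fold in the fit.

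The values showed no pairing of the samples by replicate number. With 2 libraries in each group, they cannot decide whether same-numbered libraries shared a culture or day. Same-numbered deviations from the group means correlated at 0 over all genes tested and at -0.113 over 9672 genes above 8 CPM. With the replicate block the counts stayed 8 and 16, at least 2-fold 5 and 12, no Wnt gene's call changed, the median was -0.51 and the summed ligand difference -1.51.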
